A study of Mus musculus with 3 samples.

Results

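The genes described here are 9 genes of sterol sensing, uptake and efflux in the mouse: the transcription factors *Srebf1* and *Srebf2*, their escort *Scap*, the retention proteins *Insig1* and *Insig2*, the oxysterol receptor *Nr1h2* (LXRβ), the sterol exporters *Abca1* and *Abcg1*, and the lysosomal sterol carrier *Npc2*. They were taken by name from the 27998 genes of the deposited matrices, by a rule that uses no measured value, although earlier results of these data were known when the rule was written. CD133+ cells had been sorted from the bone marrow of C57BL/6 mice and sequenced with the 10x Chromium 3′ kit v2, in which each captured mRNA molecule carries a unique molecular identifier (UMI) and is counted once. There were 3 libraries, 1 per group: young (3 months), control (also 3 months) and old (27 months in the sample label, but 18.5 months in the design text of the series, which also calls the cells intestinal). For the control library the study describes a sort of pooled C57BL/6N mice that yielded as many cells as this matrix holds. The labels give no treatment for any of them, and do not say how the control mice differed from the young ones. The cells of 3 mice were pooled in each of the young and old libraries by the design text, so that mice could not be told apart and no test between groups was possible.

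Sterol regulatory element-binding proteins (SREBPs) are made as precursors in the membrane of the endoplasmic reticulum. SCAP carries them to the Golgi for cleavage when membrane cholesterol is low, INSIG proteins hold SCAP back when sterols are plentiful, and the released factor switches on genes of cholesterol synthesis and uptake as well as *Insig1* itself. LXRs bind oxysterols and switch on export genes such as *Abca1* and *Abcg1*, while NPC2 hands cholesterol from taken-up lipoproteins to the lysosomal membrane.

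After filtering, and after setting aside cells with markers of other blood cell types, 6713 young, 9703 control and 9597 old cells were used, with 68591965, 95342295 and 118695170 UMIs and medians of 10313, 9584 and 12700 UMIs per cell. The cells carried transcripts of the neutrophil lineage. *S100a8* alone had between 142086 and 146383 UMIs per 1000000 UMIs (CPM), and the late gene *Retnlg* had 822 CPM in young, 465 in control and 1685 in old cells, whereas 6 endothelial markers summed to between 1.73 and 3.11 CPM and the endothelial receptor *Tek* had 0 UMIs in all 3 libraries. The young library stood apart from the others. A list of 9 interferon genes summed to 941 CPM there, to 30.5 CPM in control and to 26.2 CPM in old cells, although *Ch25h*, the interferon gene that makes 25-hydroxycholesterol, had 0 UMIs throughout, which by a limit of 3 counts allows up to 0.0437 CPM in the young library. The young library also had more cells set aside (665, against 77 and 84), and 7 monocyte markers still summed to 35.3 CPM in its remaining cells, against 8.38 in control and 14.4 in old cells. Between 120 and 161 cell barcodes were shared by each pair of libraries, which is 1.13% to 1.52% of the barcodes of a library. The number expected by chance is not given here, so no exchange of cells can be read from this overlap.

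The promoters of *Srebf2* and *Insig1* are shown because the sterol response element (SRE) is the sequence through which SREBPs act, and because both genes were higher both in old cells and in the control and old cells with more sterol synthesis UMIs. Of the 9 genes, 8 (not *Abcg1*) matched RefSeq promoters, with 13 windows of 250 bases before a start site. The following stretches (GRCm38.p6, all on the plus strand, 5′ to 3′) end at the window's end or before the first annotated base of the gene, and the synthesis gene *Hmgcs1* is set beside the other genes as an example that holds the SRE letters. Capitals mark, on either strand, the SRE letters TCACNCCA, the E-box CACGTG, the CCAAT box bound by NF-Y, and AGGTCA, the letters of a single LXR repeat.
Srebf2, chr15:82147019-82147180: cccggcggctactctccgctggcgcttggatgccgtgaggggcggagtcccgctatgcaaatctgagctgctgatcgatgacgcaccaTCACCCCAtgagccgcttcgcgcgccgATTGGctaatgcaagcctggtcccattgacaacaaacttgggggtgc
Insig1, chr5:28071162-28071362: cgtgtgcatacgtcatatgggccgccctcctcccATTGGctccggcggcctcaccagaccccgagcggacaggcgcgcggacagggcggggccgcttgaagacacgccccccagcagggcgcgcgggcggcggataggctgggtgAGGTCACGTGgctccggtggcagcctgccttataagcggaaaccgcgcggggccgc
Hmgcs1, chr13:119690101-119690350: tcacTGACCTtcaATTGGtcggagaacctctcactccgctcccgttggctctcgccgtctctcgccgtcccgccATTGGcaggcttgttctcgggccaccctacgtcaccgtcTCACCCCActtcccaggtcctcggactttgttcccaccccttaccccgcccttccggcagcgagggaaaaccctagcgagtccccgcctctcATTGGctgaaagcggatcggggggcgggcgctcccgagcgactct
Positions count back from the RefSeq start, which follows the last base of the full window of 250 bases. That base is 82147268 for *Srebf2* and 28071411 for *Insig1*, beyond the end of the printed stretches. The SRE letters were found in 1 of the 8 members, *Srebf2*, where they began 162 bases before the start with a CCAAT box at 135 bases. *Hmgcs1* held them at 137 bases, while the window of a second synthesis gene read here, *Idi1*, did not hold them. The *Insig1* window held a CCAAT box, the LXR letters at 105 bases and an overlapping E-box at 101 bases. Of 32536 distinct promoter windows of the same length, 3.65% held the SRE letters, 33.8% a CCAAT box, 6.04% an E-box and 14.0% the LXR letters. A match is a run of letters and no measured binding.

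*Insig1* was the member that differed most between ages among those with at least 10 CPM. Its protein retains SCAP in the endoplasmic reticulum, and its gene (chromosome 5, 28071363 to 28078662, plus strand) is a target of the SREBPs it restrains. Its level was 6.27 CPM in young cells (95% counting interval 5.69 to 6.89, 430 UMIs), 10.6 CPM in control cells (9.93 to 11.2, 1008 UMIs) and 13.6 CPM in old cells (12.9 to 14.3, 1614 UMIs). The 3 intervals did not overlap, with young lowest and old highest. *Insig1* was 2.17 times higher in old than in young cells, a log2 ratio of 1.12 (0.96 to 1.27), and 1.69 times higher in control than in young cells (log2 ratio 0.75, 0.59 to 0.92). Old exceeded control by 1.29 times (log2 ratio 0.36, 0.25 to 0.48), so that most of the distance between old and young was also present between the libraries that share an age of 3 months in their labels. All intervals here cover counting error only, and the difference between mice is not in them.

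*Srebf2*, the main activator of cholesterol synthesis genes, had 9.70 CPM in young cells (8.97 to 10.5), 10.7 CPM in control cells (10.1 to 11.4) and 12.9 CPM in old cells (12.3 to 13.6). It was 1.34 times higher in old than in young cells (log2 ratio 0.42, 0.29 to 0.55), under the limit of 1.5 times used here for a difference of size. Control and young differed by a log2 ratio of 0.14 (0.00 to 0.29). *Srebf1*, which acts mainly on fatty acid genes, had 5.42, 5.41 and 6.81 CPM in young, control and old cells, with old 1.26 times above each of the others (log2 ratio 0.33 against both) and its interval clear of theirs. The annotated gene of *Srebf2* holds the microRNA gene *Mir33* on the same strand. That of *Srebf1* overlaps *Rai1* on the other strand, and whether reads were assigned by strand is not stated in the sources used here.

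*Scap*, which escorts both SREBPs to the Golgi, went the other way. It had 8.30 CPM in young cells (7.63 to 9.01, 569 UMIs), 7.31 CPM in control cells (6.78 to 7.87, 697 UMIs) and 4.52 CPM in old cells (4.15 to 4.92, 537 UMIs). The young and control intervals overlapped and the old one lay below both. The log2 ratio of control over young was -0.18, with an interval below 0 (-0.34 to -0.02). *Scap* was 1.83 times lower in old than in young cells (log2 ratio -0.87, -1.05 to -0.70) and 1.62 times lower than in control cells (log2 ratio -0.69, -0.86 to -0.53). Being under 10 CPM in every library, it was not counted by the limit of size.

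*Insig2*, the second retention protein, which unlike *Insig1* is not induced by SREBPs in most cells, showed no such difference. It had 14.8 CPM in young (13.9 to 15.7), 15.8 CPM in control (15.05 to 16.7) and 14.96 CPM in old cells (14.3 to 15.7). The log2 ratio of old over young was 0.02, and its interval of -0.09 to 0.13 leaves room for differences of that size only, as far as counting error goes. *Nr1h2*, which encodes LXRβ, had 44.6, 38.7 and 43.6 CPM in young, control and old cells, with a log2 ratio of -0.03 (-0.10 to 0.03) for old over young and -0.20 (-0.27 to -0.13) for control over young.

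The sterol exporters were scarce. *Abca1*, which loads cholesterol onto apolipoprotein A-I, had 7 UMIs in young, 6 in control and 3 in old cells, or 0.10, 0.06 and 0.03 CPM, with overlapping intervals (0.04 to 0.21, 0.02 to 0.14 and 0.01 to 0.07). *Abcg1*, which exports cholesterol to high-density lipoprotein, had 2.38 CPM in young (163 UMIs), 1.06 CPM in control (101 UMIs) and 0.97 CPM in old cells (115 UMIs). It was 2.45 times lower in old than in young cells (log2 ratio -1.29, -1.65 to -0.94) and 2.24 times lower in control than in young cells (log2 ratio -1.17, -1.54 to -0.80), while old and control overlapped.

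*Npc2* (chromosome 12, 84754562 to 84773152, minus strand) had 184 CPM in young cells (180 to 187), 114 CPM in control cells (112 to 116) and 132 CPM in old cells (130 to 134). The young library was highest and the intervals were apart. *Npc2* was 1.61 times lower in control than in young cells (log2 ratio -0.68, -0.72 to -0.65) and 1.39 times lower in old than in young cells (log2 ratio -0.47, -0.51 to -0.44). *Npc2* was ordered like the monocyte markers across the libraries (young, then old, then control). *Abcg1* was also highest in young cells, and its control and old intervals overlapped. Markers of other cell types remained too. The 6 dendritic markers summed to 50.2, 12.2 and 10.2 CPM in young, control and old cells, and the 8 B progenitor markers to 29.7, 9.83 and 5.18 CPM. The endothelial markers were instead highest in old cells. In the 367 cells of the young library set aside for monocyte markers, *Npc2* had 1601 CPM and *Abcg1* 14.4 CPM, which is 8.72 and 6.04 times their level in the cells used. With no cells of any marker list set aside, the log2 ratio of old over young was -0.91 for *Npc2*, which then passed the limit. With a stricter removal, also over all lists, it was -0.42. Neither setting changes the monocyte cells alone. The part of remaining transcripts of monocytes or of the other cell types in these differences was not tested beyond these settings.

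**Figure D1:**
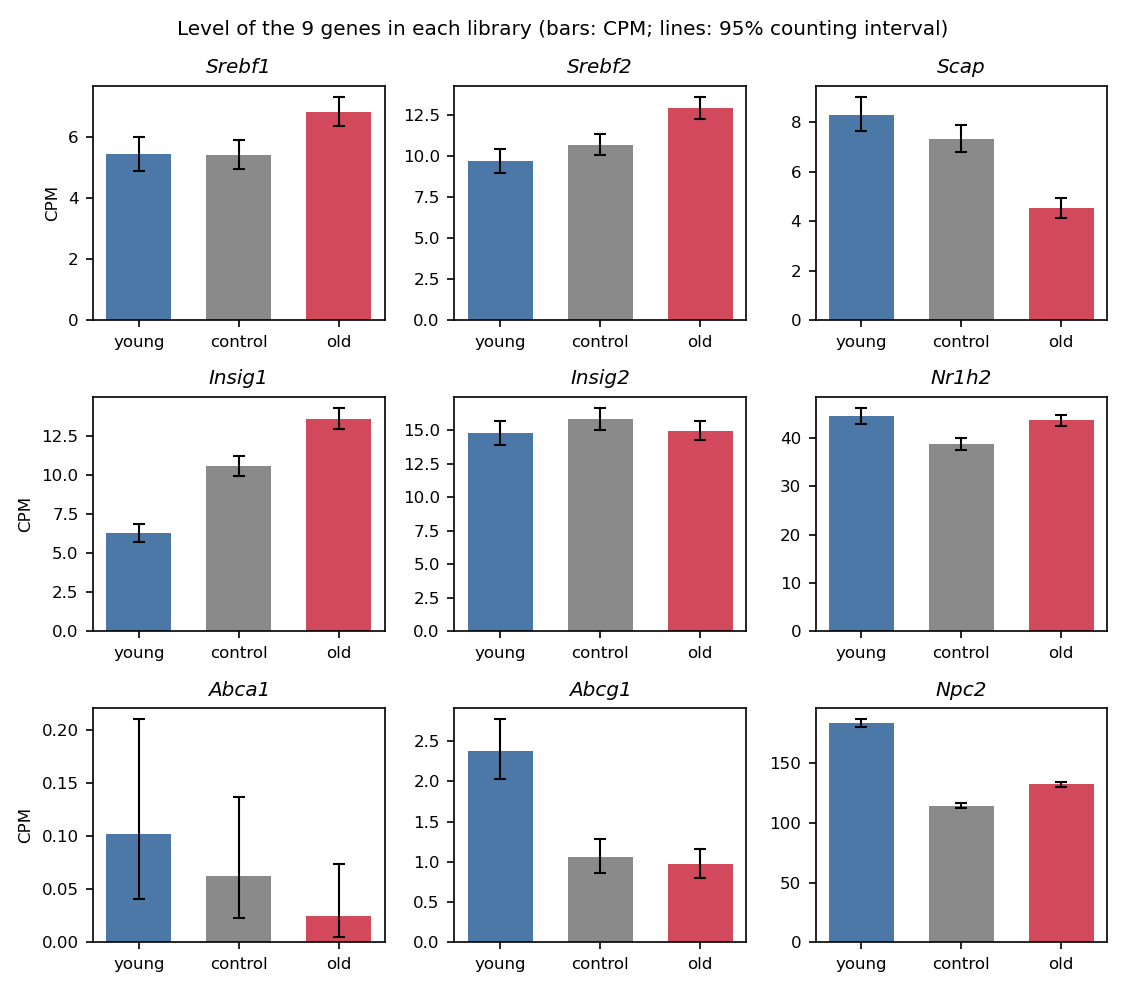
Level of each of the 9 genes in CPM (y axis, starting at 0, scaled by gene) in the young, control and old library (x axis). Bars are the library's level and black lines its 95% Poisson interval. *Insig1* climbs from 6.27 CPM in young through 10.6 in control to 13.6 in old cells, *Scap* is lowest in old cells at 4.52 CPM, and *Npc2* and *Abcg1* are highest in young cells.

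**Figure D2:**
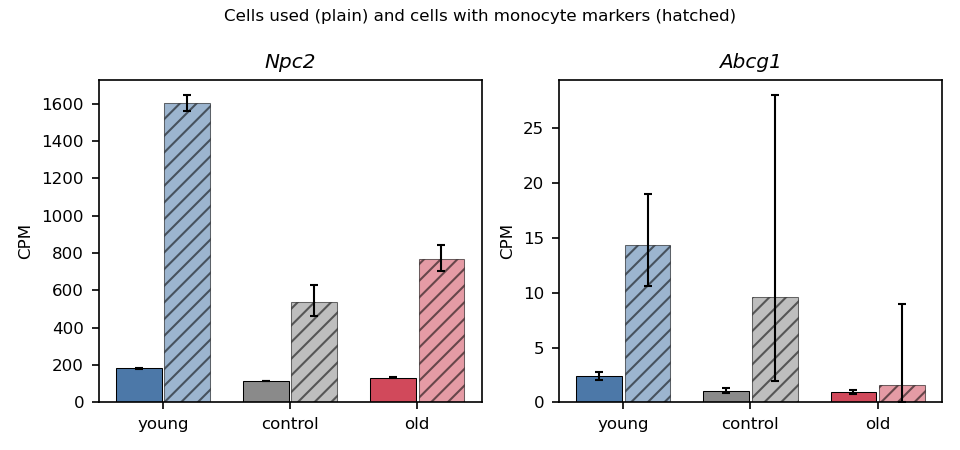
*Npc2* (left) and *Abcg1* (right) in CPM in the cells used (plain bars) and in the cells set aside for monocyte markers (hatched bars) of each library, with 95% Poisson intervals. *Npc2* reaches 1601 CPM in the marker-bearing cells of the young library, against 184 CPM in the cells used, and the wide intervals of *Abcg1* in the control and old library rest on 3 and 1 UMIs.

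Among the 5 members with at least 10 CPM in either library, 1 (*Insig1*) was at least 1.5 times higher in old than in young cells and 0 were lower. Across the 5613 genes that reached that level, 4.93% were higher and 10.6% lower by that limit. *Insig1* held place 96 from the top of these genes. In control over young, 1 of 5 members was higher (*Insig1*, at place 54 of 5577 genes) and 1 was lower (*Npc2*), against 2.19% of all genes higher and 3.94% lower. In old over control, 0 of 5 were past the limit in either direction, against 5.35% of all genes higher and 8.69% lower. The 3 comparisons share libraries and are not independent. The median log2 ratio of all genes was -0.09, -0.02 and -0.08 in the 3 comparisons, and that of the 5 members 0.02, 0.10 and 0.21.

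The sterol synthesis list, beside which the members were set, had 20 genes. Its summed level was 308 CPM in young, 435 CPM in control and 727 CPM in old cells, in the same order of libraries as *Insig1*. Of the 14 that reached 10 CPM in young or old cells, 11 were at least 1.5 times higher in old than in young cells and 0 lower, with a median log2 ratio of 1.12 against -0.09 for all genes. The log2 ratio of *Insig1*, also 1.12, lay at that median. *Sqle*, the squalene epoxidase, had the highest ratio (2.23 CPM in young, 8.21 in control and 14.9 in old cells), and *Lss*, the lanosterol synthase, was also among the 3 highest, while *Ebp*, *Dhcr7* and *Tm7sf2* had the lowest, with folds of at most 1.17. *Fdps*, which makes farnesyl diphosphate, had 109 CPM in young, 190 in control and 368 in old cells. In control over young 3 of 8 synthesis genes were past the limit, all higher, and in old over control 10 of 14.

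**Figure D3:**
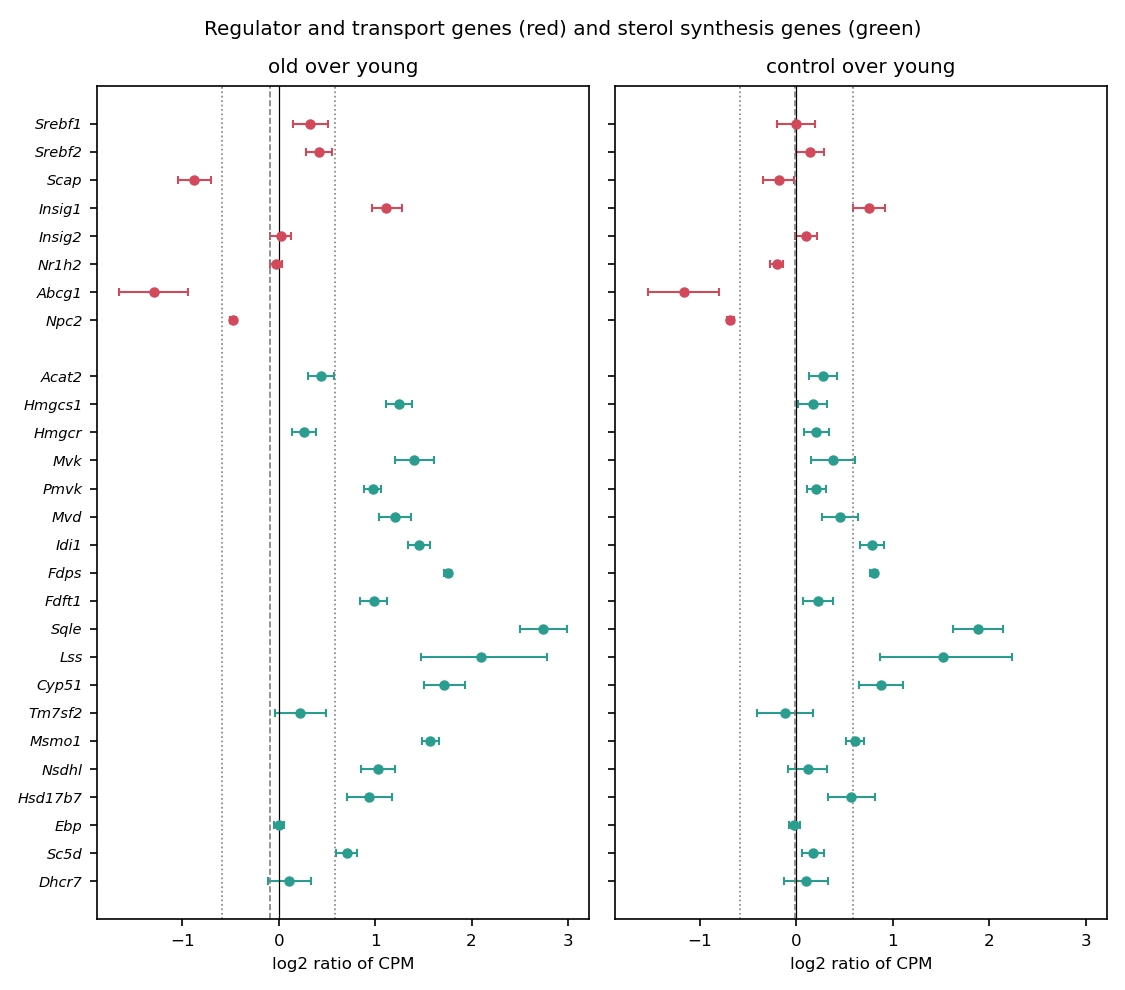
Log2 ratios of CPM (x axis) of old over young (left) and control over young (right) for 8 members (red, *Abca1* left out for its 3 to 7 UMIs) and 19 of the sterol synthesis genes (green), with 95% conditional binomial intervals. Dotted lines mark 1.5 times in either direction and the dashed line the median of all genes. *Insig1* lies among the synthesis genes at 1.12 in old over young, whereas *Scap*, *Abcg1* and *Npc2* lie to the left of 0.

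The other lists of the pathway each had 0 or 1 gene of at least 10 CPM past the limit between old and young cells. Across all genes of that level 4.93% were higher and 10.6% lower, and counts this small cannot be told apart from that share. Of 10 genes of SREBP cleavage and of the turnover of its regulators, 5 had at least 10 CPM, of which 0 were higher and 1 lower, with a median log2 ratio of -0.08. That gene was *Erlin1*, which takes part in the degradation of sterol-regulated proteins, with 16.1 CPM in young, 13.8 in control and 10.3 in old cells. *Rnf139*, a ubiquitin ligase of the endoplasmic reticulum, had 8.51, 7.47 and 5.33 CPM, and *Ufd1l*, which helps to extract proteins from that membrane, had the highest ratio of the list with 31.7, 32.6 and 40.9 CPM. *Mbtps1* and *Mbtps2*, the proteases that release SREBPs, were below 10 CPM and had 0.83 and 0.78 times their young level in old cells. Of 11 fatty acid genes, 2 had at least 10 CPM, and *Elovl5*, a fatty acid elongase, was lower (28.0 CPM in young, 18.6 in control and 13.9 in old cells). *Fads1*, a desaturase, had the highest ratio with 0.73, 0.80 and 1.35 CPM, and *Scd1* the lowest with 10, 9 and 1 UMIs. *Fasn*, the fatty acid synthase, had 3.28, 6.48 and 3.13 CPM and was highest in control cells.

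Among 10 LXR partners and targets, 2 had at least 10 CPM and 0 were past the limit between old and young. *Nr1h3* (LXRα) had 0.48, 0.73 and 0.32 CPM in young, control and old cells. The genes with the lowest ratios were the phospholipid transfer protein *Pltp* (36, 3 and 2 UMIs), *Abcg4* (8, 6 and 1 UMIs) and *Arl4c* (62, 12 and 18 UMIs), all scarce and, as with *Abcg1*, highest in the library with the most monocyte markers, whose part in this was not tested. Among 9 lipoprotein and scavenger receptors, 4 had at least 10 CPM and 0 were past the limit. The scavenger receptors *Cd36* (12, 1 and 2 UMIs) and *Msr1* (35, 8 and 11 UMIs) had the lowest ratios, and *Scarb1*, the receptor for high-density lipoprotein, had one of the 3 highest, with 13.3, 17.2 and 18.0 CPM. Among 12 genes of sterol transport and ester storage, 1 of 8 was higher in old than in young cells, *Osbpl9* (30.4, 27.4 and 46.8 CPM), a relative of the oxysterol-binding protein. *Soat2*, which makes cholesterol esters, had 7 UMIs in young, 37 in control and 171 in old cells, and *Osbp*, the oxysterol-binding protein, had 5.60, 5.58 and 2.81 CPM. Both were below 10 CPM.

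Cells were then ordered by *Mpo*, the myeloperoxidase of primary granules, which is abundant in promyelocytes and falls as neutrophils mature. The 5 bands were under 1, 1 to under 5, 5 to under 20, 20 to under 60, and 60 or more *Mpo* UMIs per 10000 UMIs of the cell, and the smallest held 510 cells (control, under 1). The highest band held 16.6% of young, 10.997% of control and 6.92% of old cells. *Insig1* was higher in old than in young cells in each of the 5 bands. From the lowest to the highest band it had 4.05, 4.67, 5.52, 6.88 and 11.2 CPM in young cells. In control cells it had 8.92, 7.71, 9.03, 15.7 and 19.0 CPM, and in old cells 14.0, 11.4, 14.0, 15.7 and 23.8 CPM. The log2 ratios of old over young were 1.79, 1.28, 1.34, 1.19 and 1.08, and every interval lay above 0. Control exceeded young in every band as well (log2 ratios 1.14, 0.72, 0.71, 1.19 and 0.76). Old exceeded control beyond counting error in 4 of the bands, and in the band of 20 to under 60 the log2 ratio was -0.01 (-0.30 to 0.29). The interferon list was highest in the young library in every band (506 to 1339 CPM, against 10.1 to 49.6 CPM elsewhere), and its part in the lower *Insig1* of young cells cannot be told apart from the library.

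*Srebf2* was higher in old than in young cells by log2 ratios of 0.42, 0.55, 0.44, 0.07 and 0.23 from the lowest to the highest band, with intervals above 0 in the bands of 1 to under 5 and 5 to under 20. *Scap* was lower in old than in young cells in all 5 bands (log2 ratios -0.58, -0.47, -0.48, -0.71 and -0.57), with the interval of the lowest band, which rests on 21 and 16 UMIs, reaching above 0. All 5 were smaller in size than the -0.87 of the whole libraries, which differ in their share of cells per band. With the bands given equal weight, the log2 ratio of *Scap* was -0.59. The log2 ratios of *Npc2* for old over young were -0.29, -0.21, -0.17, -0.38 and -0.55, and those for control over young lay between -0.69 and -0.56. *Insig2* stayed within intervals that held 0 in all 5 bands of old over young. *Abcg1* was lower in old than in young cells in every band, with intervals below 0 in the 3 lowest bands. Against control, *Scap* was lower in old cells in the bands from 1 to under 20 beyond counting error.

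Along the bands, *Scap* had the steepest course of the 6 members with at least 10 CPM in one of the outer bands. It had 3.41 CPM in the lowest and 20.7 CPM in the highest band of young cells, 4.10 and 16.5 CPM in control cells, and 2.28 and 13.9 CPM in old cells, which are folds of 6.08, 4.03 and 6.10. *Npc2* was 2.84, 2.98 and 2.37 times higher in the highest than in the lowest band of young, control and old cells, and *Insig1* 2.77, 2.13 and 1.70 times. These 3 were past the limit in each library among the 6 members with at least 10 CPM in either band, all higher and 0 lower. In young cells 53.5% of all genes were higher and 8.92% lower by that limit, in control cells 54.6% and 11.7%, and in old cells 56.9% and 10.7%, so that 3 of 6 is near the background. The 50 genes with the most UMIs took 57.0% to 59.3% of the UMIs in the lowest band and 28.6% to 30.3% in the highest, which leaves more of the total for other genes there. The median log2 ratio of all genes was 0.65, 0.70 and 0.74 in young, control and old cells. Relative to it, *Scap* remained 1.95, 1.32 and 1.86 above, *Npc2* 0.86, 0.88 and 0.50 above, and *Insig1* 0.82, 0.39 and 0.02 above. The summed monocyte markers also differed between the lowest and highest band. They had 30.2 and 60.2 CPM in young, 1.93 and 25.4 in control and 11.1 and 42.3 in old cells. Their part in the course of *Npc2* was not tested.

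*Srebf2* was nearly level across the bands in CPM, with log2 ratios of highest over lowest of -0.12, 0.11 and -0.31 in young, control and old cells, and lay 0.77, 0.59 and 1.06 below the median of all genes (log2 values of -0.77, -0.59 and -1.06). *Insig2* (0.32, 0.52 and 0.41) and *Nr1h2* (0.48, 0.36 and 0.17) were higher in the highest band in CPM but lower when set against the median of all genes (-0.33, -0.18 and -0.33 for *Insig2*, and -0.17, -0.34 and -0.58 for *Nr1h2*). *Abcg1* ran opposite to *Scap*. It had 4.26 CPM in the lowest and 1.44 CPM in the highest band of young cells (20 and 19 UMIs), with intervals apart. It had 1.69 and 0.31 CPM in control cells (7 and 4 UMIs) and 1.19 and 0.73 CPM in old cells (11 and 7 UMIs). The intervals of these levels overlapped in control and in old cells. As a ratio of highest over lowest band, the log2 value was -2.46 in control cells, with an interval below 0 (-4.68 to -0.49). In old cells it was -0.72, with an interval that held 0 (-2.32 to 0.78). *Srebf1* was under 10 CPM in both outer bands of each library. Its folds of highest over lowest band were 2.65, 2.96 and 1.68 in young, control and old cells. As log2 ratios these were 1.41, 1.57 and 0.75, against medians of all genes of 0.65, 0.70 and 0.74. In old cells *Srebf1* therefore lay near the median.

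**Figure D4:**
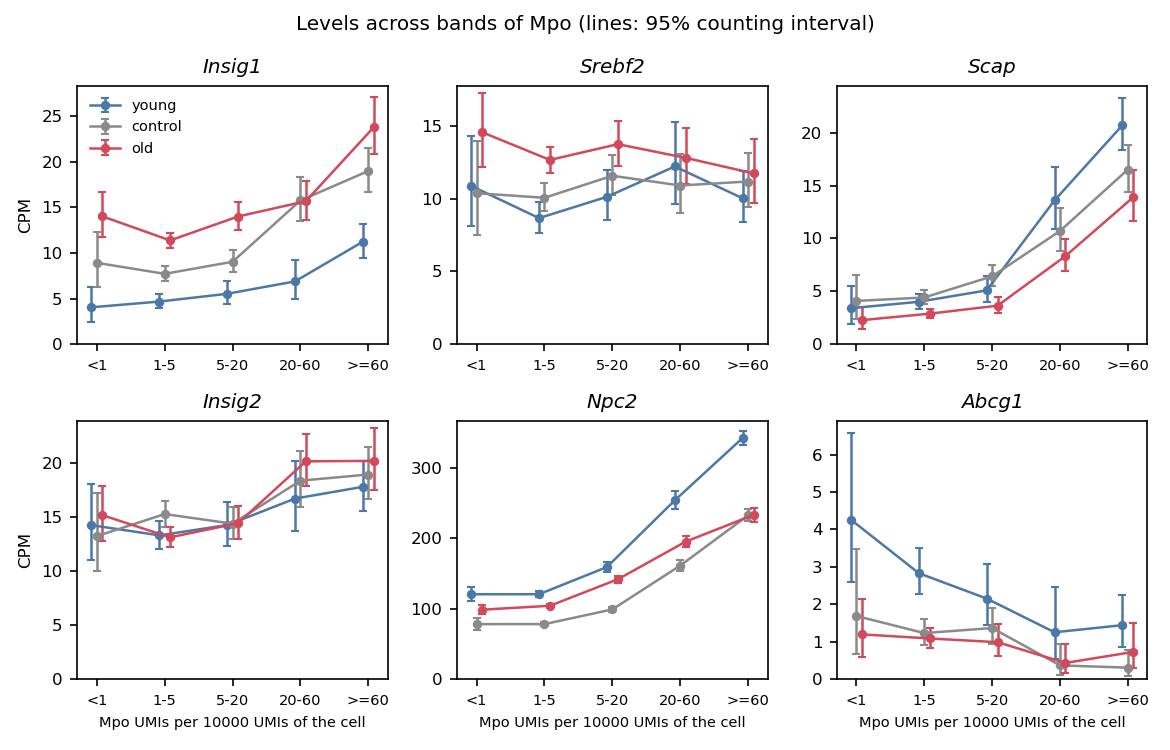
Levels in CPM (y axis, starting at 0) of 6 members across the 5 bands of *Mpo* UMIs per 10000 UMIs of the cell (x axis), for young (blue), control (grey) and old (red) cells, with 95% Poisson intervals. *Insig1* is lowest in young cells in every band, *Scap* and *Npc2* climb toward the highest band in all 3 libraries, and *Srebf2* is nearly level.

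Within each library and *Mpo* band, cells were also split at the middle of their sterol synthesis UMIs per UMI, a comparison chosen after the data had been seen and given as a description. The upper cells had 448, 647 and 1017 CPM of the 20 synthesis genes in young, control and old cells, and the lower cells 158, 209 and 424 CPM. The score rested on 21131 synthesis UMIs in 6713 young cells, 41435 in 9703 control cells and 86286 in 9597 old cells. It was therefore coarsest in young cells, and whether this lowered the young ratios was not tested. The upper cells also had more UMIs per cell (medians 10797 against 9895 in young, 9987 against 9106.5 in control and 12988 against 12408 in old cells). *Insig1* had 7.11 CPM in the upper and 5.34 CPM in the lower cells of the young library (252 and 177 UMIs), a log2 ratio of 0.41 (0.13 to 0.70). In control cells it had 13.7 and 7.26 CPM (672 and 336 UMIs), a log2 ratio of 0.92 (0.73 to 1.11), and in old cells 18.1 and 8.93 CPM (1095 and 518 UMIs), a log2 ratio of 1.02 (0.86 to 1.17). It was higher in the upper cells of every band of every library, but the interval held 0 in each of the 5 young bands and in the lowest control band. Outside the synthesis list, *Insig1* held place 1 of 5324 genes in control, place 2 of 5107 in old and place 11 of 5538 in young cells. The gene at the third place in control and old cells was *Stard4*, a soluble sterol carrier (log2 ratios 0.58 and 0.80, named after its value was seen). In old cells the first place went to *Jchain* (2.70). In young cells the first places went to *Ly6d*, *Irf8* and *Jchain*, genes of lymphoid and plasmacytoid cells, and the 6 dendritic markers summed to 54.2 CPM in the upper and 46.0 CPM in the lower cells, whereas in control cells they summed to 12.2 CPM in both and in old cells to 9.73 and 10.8 CPM. The 7 monocyte markers summed to 40.8 CPM in the upper and 29.4 CPM in the lower young cells, to 8.20 and 8.58 CPM in control cells and to 14.8 and 14.1 CPM in old cells. The 4 cycling markers summed to 942 and 1142 CPM in old cells. The part of these cells in the ratios was not tested.

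*Srebf2* was higher in the cells with more synthesis UMIs by log2 ratios of 0.40 (0.22 to 0.58) in control and 0.30 (0.15 to 0.44) in old cells, and by 0.02 (-0.20 to 0.24) in young cells. *Scap* and *Nr1h2* had intervals that held 0 in all 3 libraries. *Srebf1* had log2 ratios of 0.06 and 0.10 in young and control cells, with intervals that held 0, and of 0.26 (0.06 to 0.47) in old cells. *Insig2* had log2 ratios of 0.08 and 0.00 in young and control cells, with intervals that held 0, and of 0.23 (0.09 to 0.36) in old cells. *Abcg1* was lower in the cells with more synthesis UMIs, by log2 ratios of -0.999 (-1.63 to -0.39) in control and -0.75 (-1.33 to -0.19) in old cells, from 35 against 66 and 44 against 71 UMIs. In young cells its ratio of -0.26 had an interval of -0.72 to 0.20. *Npc2* differed by 0.17, 0.22 and 0.20, against medians of all genes of 0.03 to 0.04. With *Fdps*, the most abundant gene of the list, left out of the score, *Insig1* had log2 ratios of 0.29, 0.73 and 0.98 and *Srebf2* of 0.19, 0.30 and 0.29 in young, control and old cells. The young interval of *Srebf2* held 0 (-0.04 to 0.41), and that of *Insig1* was 0.01 to 0.57. In the same setting *Abcg1* had -0.08, -0.62 and -0.58, the young interval holding 0, and the ratio of *Insig2* in old cells was 0.12 with an interval that held 0 (-0.01 to 0.26). That of *Srebf1* in old cells was then 0.08, also with an interval that held 0 (-0.12 to 0.28). A library pools mice, and whether the upper cells came from particular mice was not tested.

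**Figure D5:**
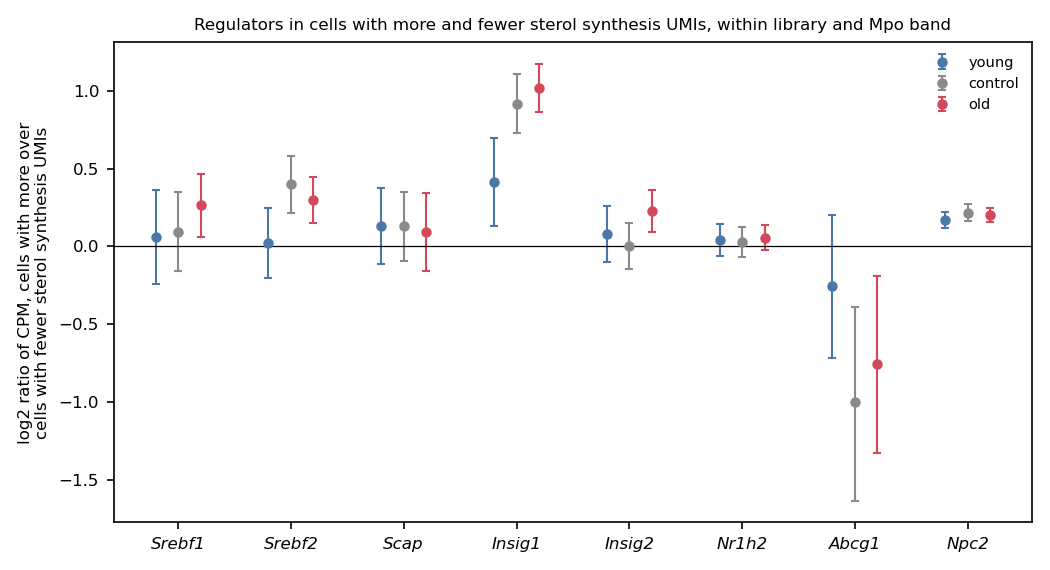
Log2 ratio of CPM (y axis) of 8 members (x axis) in cells with more over cells with fewer sterol synthesis UMIs, split within each library and Mpo band, for young (blue), control (grey) and old (red) cells, with 95% conditional binomial intervals. *Insig1* has the highest value in each library (0.41, 0.92 and 1.02), and *Abcg1* lies below 0.

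The genes whose course over the 15 combinations of library and band was most like that of a member were ranked by Pearson's r of log2(CPM + 1), as a description, since the points share libraries and depth. For *Insig1* they included *Mat2b* (0.97) and *Azin1* (0.95), among 5699 genes, and *Fdps* had 0.94. For *Srebf2* they were *Rab5c* (0.87), *Snx4* (0.85) and *Jund* (0.85), with 0.66 for *Fdps*. For *Insig2* they were *Mrpl46*, *Sf3b6* and *Dapk3* (0.94 to 0.95) and for *Nr1h2* *Ctps2*, *Cln6* and *Wash1* (0.93 to 0.94). *Npc2* was followed by *Pts* (0.99), *Gm11808* (0.99) and *Gm1604a* (0.98), and its value with *Fdps* was 0.39.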

How the data were processed

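Reads were aligned with STAR and counted with Cell Ranger 2.1.0 against mm10 (GRCm38), per the labels, and the authors deposited whole UMI counts per gene and cell without normalization. Whether reads were subsampled when the libraries were combined is not given in the sources used here. Following the study's methods, cells with at least 200 genes, at most 20% mitochondrial UMIs and a UMI count between the 5th and 95th percentile were kept (young and old pooled, control by itself). Cells with at least 2 UMIs of each of 3 markers from 1 of 11 lists of other cell types were set aside, and no doublet caller was run. The cells used had between 3423 and 19857 UMIs.

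UMIs were summed over the cells of a library or *Mpo* band and divided by all UMIs of those cells (CPM). Each level has an exact Poisson and each ratio an exact conditional binomial interval at 95%, for counting error only. With 1 library per group no test was made, and a difference was counted where it reached 1.5 times and the gene had 10 CPM or more on one side. In all, 27645 of 27998 gene identifiers were found in GENCODE M21, and promoters came from RefSeq (GRCm38.p6). All 9 members are named, and so are up to 3 genes from each end of a pathway list, by ratio. *Fdps*, *Hmgcs1*, *Idi1*, *Fasn*, *Nr1h3*, *Mbtps1*, *Mbtps2*, *Stard4*, *Ly6d*, *Irf8* and *Jchain* lie outside that rule and were chosen after their values were seen. The members and lists were chosen with earlier results of these data known. Not every gene of sterol uptake and synthesis, or of those most like a member, is reported here. The ratio and its interval were tested on simulated data. Alternatives changed the cells, scaling, thinning, bands, minimum level and limit of size. The software was Python 3.11.15 with pandas 2.3.3, numpy 2.4.6, matplotlib 3.10.9 and scipy 1.17.1.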

Additional observations from a re-analysis of the deposited data

Results flagged for a closer look

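*Nr1h2* differed between *Mpo* bands in the direction of old over young. In the band of 1 to under 5 *Mpo* UMIs per 10000 its log2 ratio was 0.14, with a counting interval above 0, and in the band of 60 or more it was -0.30, with an interval below 0. Both are under 1.5 times, each band holds 1 library per age, and the difference between bands was not tested.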

How the results depend on the processing

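No paired analysis was possible because each group is 1 library, and for the same reason no replicate could be left out. Each setting was changed by itself. Old over young had 1 member past the limit. It had 2 with UMIs per cell in place of CPM (both higher), 2 with no cells set aside (*Insig1* higher, *Npc2* lower), 0 of 1 with a minimum of 50 CPM, and 4 of 9 with no minimum level (1 higher, 3 lower). Of the 3 lower, *Abca1* rests on 3 UMIs in old and 7 in young cells, and its interval held 0. Control over young had 0 in place of 2 at a limit of 2 times, and old over control 2 in place of 0 with UMIs per cell. Highest over lowest *Mpo* band had 6 (control), 5 (old) and 5 (young) in place of 3 with UMIs per cell. In that setting the median log2 ratio of all genes was 1.29, 1.19 and 1.12 in the same order, itself past the limit. The share of all genes past the limit is not given here for each setting. These counts of members therefore cannot be set against that share and are no result about the members. When centered on the median of all genes, *Insig1* (0.02) and *Npc2* (0.50) of old cells fell under the limit between the highest and lowest *Mpo* bands. *Insig1* of control cells also fell under it. *Scap* (1.86 in old cells) stayed past it and *Srebf2* (-1.06 in old cells) passed it as lower, each in young and control cells too. Genes past the limit among all genes, old over young, numbered 874 (277 higher, 597 lower). They numbered 291 at a limit of 2 times, 217 with a minimum of 50 CPM and 5367 with no minimum, and the split was 680 higher and 246 lower with UMIs per cell and 361 and 449 when centered on the median. The sterol synthesis count, 11 of 14, lay between 8 and 14 under the other settings of cells, scaling and limit. Added after seeing the data, it was 2 of 3 with a minimum of 50 CPM and 15 of 20 with no minimum.

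*Insig1* kept its direction in old over young under all 10 settings (log2 ratios 1.01 to 1.39), as did *Scap* (-0.95 to -0.59). *Srebf2* lay between 0.33 and 0.69, *Npc2* between -0.91 and -0.20. *Nr1h2* turned above 0 with UMIs per cell and when centered, and *Insig2* below 0 in thinned cells, both near 0. With 1 library per group, differences between mice, library preparation and age cannot be told apart, and at this depth genes of a few UMIs, such as *Abca1*, allow no comparison.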

Other observations

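The cells set aside in the young library carried the sterol genes at other levels. In 73 cells with dendritic markers *Insig1* had 29.7 CPM (17.0 to 48.3, 16 UMIs), *Abcg1* 16.7 CPM (9 UMIs), *Npc2* 947 CPM (867 to 1033) and *Abca1* 3 UMIs (5.57 CPM, 1.15 to 16.3), against 7 UMIs in the 6713 cells used. In the 367 cells with monocyte markers *Srebf2* had 17.6 CPM (13.4 to 22.6) and *Insig1* 13.5 CPM (9.86 to 18.0), while *Scap* (9.08 CPM), *Insig2* (16.1 CPM) and *Nr1h2* (49.2 CPM) had intervals that held the level of the cells used. In 112 cells with B progenitor markers *Npc2* had 229 CPM and *Insig1* 2.89 CPM (3 UMIs). *Npc2* in the monocyte marker cells had 1601 CPM in the young, 540 CPM in the control (34 cells) and 769 CPM in the old library (61 cells).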
